A study of Drosophila melanogaster with 48 samples.

Results

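The transcripts described here are those of the mitochondrial genome in brains of Drosophila melanogaster, measured by RNA-seq in a fly model of mucopolysaccharidosis IIIB. They were taken as every gene whose FlyBase symbol starts with mt:, which gave 37 of the 17490 genes in the count table. Of these, 13 encode proteins, 2 encode ribosomal RNAs and 22 encode transfer RNAs, and protein genes are reported apart from RNA genes. The genotypes were NAGLU KO, named as a knockout of the gene for the lysosomal enzyme that is deficient in the human disease, NAGLU W422X, named for a stop codon, NAGLU Y160C, named for an amino acid change, and WG2, for which no NAGLU change is named. Whether WG2 is the line that the mutants were made from is not stated, so a difference between the lines at other loci cannot be told apart from one of the NAGLU allele. Brains of females and males were taken at week 3 and at week 0 of age, with 20 brains per sample and 3 samples in each of the 16 groups, hence 6 libraries per genotype and age and 48 in all. The design sets the mutants against WG2, week 3 against week 0, and males against females. No label ties a replicate to a culture of its own, and the p-values therefore refer to the spread among these samples, which may be technical.

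The mitochondrial genome of animals is a small circle that is read from both strands into long precursor RNAs. The transfer RNAs that lie between most of the other genes mark where the precursors are cut, and the messengers then differ in how long they last. Its protein genes encode the hydrophobic core of the respiratory chain and of ATP synthase: ND subunits of complex I, cytochrome b of complex III, the 3 catalytic core subunits of cytochrome c oxidase (complex IV) and a pair of subunits of ATP synthase (complex V). All other subunits, the ribosomal proteins of the organelle and the enzymes that copy and transcribe its DNA come from the nucleus. Neurons depend heavily on this pathway for ATP.

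Total counts ran from 8690199 to 55801160 reads per library, and the members held 0.903% of all counts. The level of Naglu averaged 2.10 ± 0.79 in the KO libraries, 6.66 ± 1.51 in the W422X libraries and 21.2 ± 2.63 in the Y160C libraries, against 24.7 ± 3.39 in the WG2 libraries (CPM, SD, n = 12 each). CPM are read counts scaled to a common library size with TMM factors. Of the members, 20 passed the expression filter, namely all 13 protein genes, both ribosomal RNA genes and 5 transfer RNA genes. A gene was called at an adjusted p under 0.05 in edgeR's quasi-likelihood test, with Benjamini-Hochberg adjustment over the 15807 genes tested. Some libraries stood apart in ways that the groups do not name. In 9 libraries, all at week 3, over 0.4% of counts fell in rare genes (the lowest 30% by mean level), against 0.0614% to 0.373% in the other 39, and 4 of the 9 were KO. In 9 libraries under 0.003% of counts fell in nuclear ribosomal RNA genes, 4 of them WG2 at week 3. Calls that were lost without either set are named with their gene.

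Per unit of length, the complex IV and complex III messengers were the most abundant protein transcripts, and the level per kb spanned a wide range between genes. In the 6 WG2 libraries at week 0, mt:CoIII (subunit III of cytochrome c oxidase; mitochondrion_genome:4736-5524, plus strand, BDGP6.54) had 3464 ± 810 CPM per kb (SD). mt:CoI, the catalytic subunit of the same enzyme, had 2397 ± 589 CPM per kb, and mt:Cyt-b, the complex III subunit, 1528 ± 596 CPM per kb. These differences between neighbours in the order of levels were larger than the SD of either gene. mt:CoII followed with 1190 ± 231 CPM per kb and mt:ATPase6 with 915 ± 447 CPM per kb. The gaps from mt:Cyt-b to mt:CoII and from mt:CoII to mt:ATPase6 were smaller than the larger SD. Next came mt:ND1 with 428 ± 76.4 CPM per kb.

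The other complex I genes were lower. mt:ND4 had 148 ± 68.8 CPM per kb and mt:ND5 had 143 ± 47.9 CPM per kb, which did not differ beyond their SD. mt:ND3 had 56.7 ± 25 CPM per kb, mt:ND4L 22.7 ± 11.9, mt:ND6 12.5 ± 4.74 and mt:ND2 12.4 ± 4.84 CPM per kb. Neither the gap from mt:ND4L to mt:ND6 nor that from mt:ND6 to mt:ND2 exceeded the larger SD. mt:ATPase8 was the lowest protein gene, at 1.96 ± 1.01 CPM per kb. It lies directly before mt:ATPase6 on the same strand, and the 2 genes share 7 bases. mt:ND4 and mt:ND4L, both on the minus strand, share 1 base. The sources used here give neither the rule for reads over shared bases nor the strand setting, so reads from the 2 strands of this genome cannot be told apart. The levels of overlapping genes are therefore reads assigned to each gene, and need not be levels of separate messengers. Over all 48 libraries mt:CoI held 37.6% and mt:CoIII 23.7% of the reads of the 13 protein genes, and mt:ATPase8 held 0.00452% of them.

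**Figure D1:**
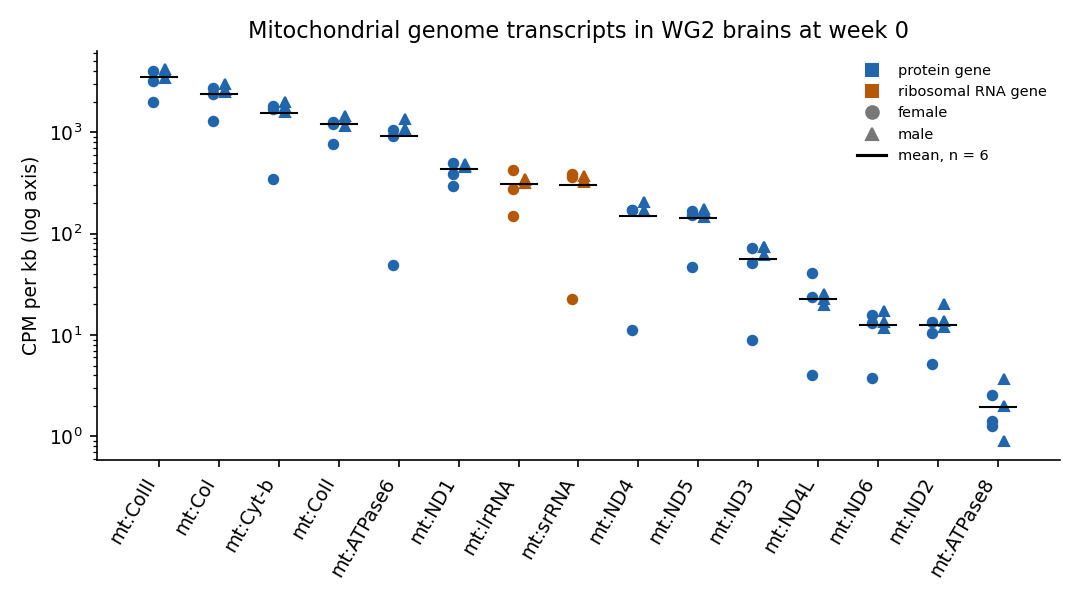
Level of each protein gene and ribosomal RNA gene in the 6 WG2 libraries at week 0, in CPM per kb of gene length on a log axis, with the mean as a line. The order runs from mt:CoIII at 3464 CPM per kb to mt:ATPase8 at 1.96 CPM per kb, and a single female library lies below the others in most genes.

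mt:CoIII was the one protein gene called lower at week 3 in all 4 genotypes, and most other calls with age were in KO and WG2. In KO 4 of 13 were called lower and 0 higher, in a comparison where 11.5% of all genes tested were called lower and 6.38% higher. In W422X 1 of 13 was called lower and 0 higher, with 2.99% of all genes lower and 4.26% higher. In Y160C 1 of 13 was called lower and 1 higher, with 4.29% of all genes lower and 3.26% higher. In WG2 8 of the 13 were called lower and 0 higher, with 5.21% of all genes lower and 3.51% higher. With 13 genes, a single call is close to what these shares give. At an unadjusted p under 0.05 edgeR counted 8, 1, 3 and 9 of the 13 in KO, W422X, Y160C and WG2, and DESeq2 called 3, 1, 1 and 8 lower and 0 higher. With RLE size factors in place of TMM, the genes called over the whole table were 1436 higher and 1536 lower in KO, beside 1009 and 1821, and 889 higher and 944 lower in W422X, beside 673 and 472. The members' calls by direction are given for TMM. The median log2 fold change of the 13 genes, week 3 over week 0, was -0.89 in KO, -0.26 in W422X, 0.09 in Y160C and -0.79 in WG2, beside medians over all genes tested of 0.12, 0.13, 0.16 and 0.07 in the same genotypes.

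As a share of all counts, the 13 protein genes together held 0.667 ± 0.223% at week 3 and 1.15 ± 0.530% at week 0 in KO (SD, n = 6 each). In W422X they held 0.747 ± 0.208% at week 3 and 0.941 ± 0.259% at week 0. In Y160C they held 0.815 ± 0.0720% at week 3 and 0.803 ± 0.142% at week 0. In WG2 they held 0.543 ± 0.135% at week 3 and 0.981 ± 0.287% at week 0. Within these brains, fewer cells of a type, fewer copies of the mitochondrial genome and less RNA per cell cannot be told apart.

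Among the complex IV genes, mt:CoIII separated the ages in 3 of the 4 genotypes. How many of all genes tested separate the ages in this way was not counted. In KO it had 765, 1180 and 1615 CPM at week 3 (lowest, median and highest of 6) and 2167, 2871 and 5433 CPM at week 0, and the ages did not overlap. In W422X it had 944, 1388 and 2331 CPM at week 3 and 1815, 2656 and 3753 CPM at week 0, and 4 of the 6 week 3 libraries lay below every week 0 library. In Y160C the values were 989, 1399 and 1646 CPM at week 3 and 1882, 2022 and 2513 CPM at week 0, also without overlap. The ages were likewise apart in WG2, which had 744, 1056 and 1515 CPM at week 3 and 1571, 2917 and 3277 CPM at week 0. The log2 fold changes of mt:CoIII were -1.51 ± 0.20 in KO (SE, edgeR adjusted p 1.81e-06), -0.83 ± 0.20 in W422X (adjusted p 0.00599), -0.62 ± 0.20 in Y160C (adjusted p 0.0447) and -1.31 ± 0.20 in WG2 (adjusted p 2.78e-05). In KO, W422X and WG2 the call held under all 12 other settings and after the removal of each of the 48 libraries in turn, with edgeR or DESeq2 adjusted p up to 0.00602, 0.0268 and 0.00189. In Y160C it was lost under 4 of the 12 settings, among them the replicate blocks and the one without the 9 libraries with a high share of rare genes, and after the removal of 15 single libraries (log2 fold change -0.77 to -0.46, adjusted p up to 0.232).

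mt:CoII and mt:CoI fell in KO and WG2. mt:CoII, which carries the copper site that accepts electrons from cytochrome c, had 296, 453 and 692 CPM at week 3 in KO and 607, 886 and 1577 CPM at week 0 (lowest, median and highest). In WG2 it had 340, 504 and 627 CPM at week 3 and 527, 838 and 976 CPM at week 0. In both genotypes all 6 week 3 libraries lay below the week 0 median, though the ranges overlapped. The log2 fold change of mt:CoII was -1.05 ± 0.19 in KO (SE, edgeR adjusted p 0.000204) and -0.71 ± 0.19 in WG2 (adjusted p 0.0150), and that of mt:CoI was -0.82 ± 0.20 in KO (adjusted p 0.00347) and -0.79 ± 0.20 in WG2 (adjusted p 0.00877). In W422X and Y160C neither gene was called, with log2 fold changes of -0.31 and -0.23 for mt:CoII and of -0.26 and -0.02 for mt:CoI. The KO call of mt:CoI was lost without the 9 libraries with a high share of rare genes and without KO male week 0 replicate 2 alone, which was the highest KO library at week 0 (6860 CPM against 3335 CPM in the highest KO library at week 3). The WG2 calls of both genes were lost without the 9 libraries low in nuclear ribosomal RNA, which leaves WG2 with 2 libraries at week 3. That of mt:CoII was also lost without the 9 libraries with a high share of rare genes and without WG2 female week 0 replicate 2 or week 3 replicate 2.

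**Figure D2:**
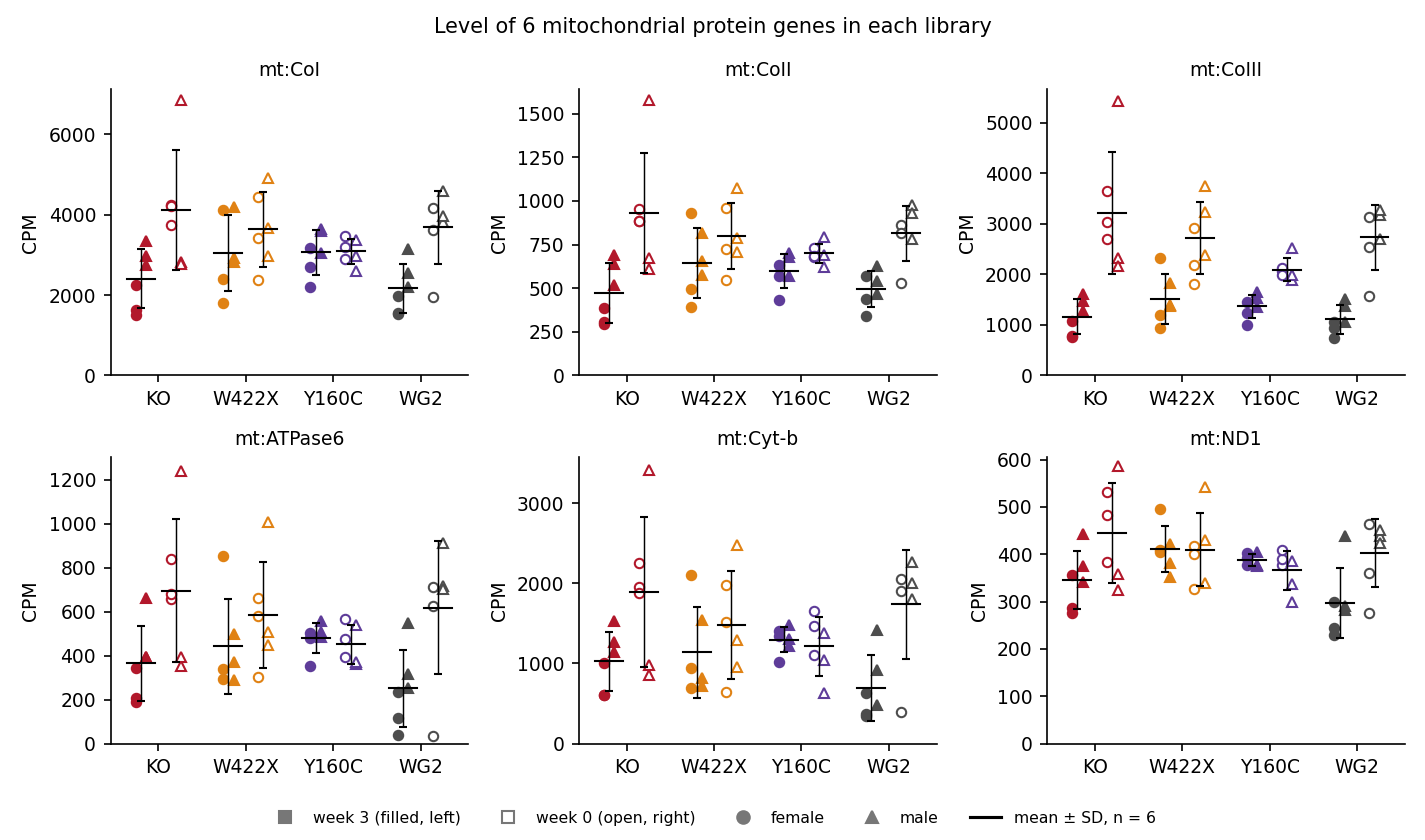
CPM of 6 protein genes in each library, by genotype and age (week 3 filled on the left, week 0 open on the right; circles female, triangles male), with mean ± SD of 6 libraries. The ages of mt:CoIII are apart in KO, Y160C and WG2 and overlap in W422X, and those of mt:ND1 overlap in all 4 genotypes.

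Of the complex III and complex V genes, mt:Cyt-b and mt:ATPase6 were called lower with age in WG2. mt:Cyt-b had 346, 557 and 1418 CPM at week 3 in WG2 and 391, 1955 and 2263 CPM at week 0 (log2 fold change -1.40 ± 0.37, edgeR adjusted p 0.0128). In KO its medians were 1078 CPM at week 3 and 1921 CPM at week 0 (-0.93 ± 0.37, adjusted p 0.0692). mt:ATPase6, the proton channel subunit of ATP synthase, had 39, 243 and 549 CPM at week 3 in WG2 and 32.7, 709 and 913 CPM at week 0 (-1.44 ± 0.44, adjusted p 0.0352). All 6 week 3 libraries lay below the week 0 median for both genes in WG2, and likewise in KO. In KO mt:ATPase6 was not called either (-1.01, edgeR adjusted p 0.0949). However, a single WG2 week 0 library, female replicate 1, reached into the week 3 range of mt:Cyt-b (391 CPM) and below that of mt:ATPase6 (32.7 CPM). In Y160C the medians of mt:ATPase6 were 494 CPM at week 3 and 434 CPM at week 0 (0.09 ± 0.43). mt:ATPase8 was called higher in Y160C (2.0 ± 0.61, edgeR adjusted p 0.0342), on 64 reads over the 6 libraries at week 3 and 22 reads over the 6 at week 0. DESeq2 gave no adjusted p for it, and the call was lost under 3 of the 12 settings, among them those without either set of 9 libraries, and after the removal of 4 single libraries.

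Of the complex I genes, mt:ND1, mt:ND4 and mt:ND5 were called lower in WG2, with log2 fold changes of -0.44 ± 0.13, -1.58 ± 0.42 and -1.14 ± 0.36 (edgeR adjusted p 0.0303, 0.0139 and 0.0430). mt:ND4 had 11.8, 70.9 and 143 CPM at week 3 in WG2 and 14.9, 225 and 276 CPM at week 0. In KO mt:ND1 was also called (-0.37 ± 0.13, adjusted p 0.0477). mt:ND4 (-0.98) and mt:ND5 (-0.89) were not called in KO (edgeR adjusted p 0.0891 and 0.0794). The mt:ND1 call was lost under 10 of the 12 settings in KO and under 5 in WG2, and that of mt:ND5 in WG2 under 6. Either set of 9 libraries ended all 3 of these calls when left out. The WG2 call of mt:ND4 was lost in a fit of WG2 alone, without the 9 libraries low in nuclear ribosomal RNA, and without WG2 female week 0 replicate 2 or 3 alone (edgeR adjusted p up to 0.174). The low genes mt:ND2, mt:ND3, mt:ND4L and mt:ND6 were called in no genotype. mt:ND2 in WG2 had overlapping ages, with a lowest value of 7.29 CPM at week 3 and of 5.30 CPM at week 0 (0.01 ± 0.30). In W422X, mt:ND1 likewise had medians of 407 CPM at week 3 and 409 CPM at week 0 (0.01 ± 0.13).

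**Figure D3:**
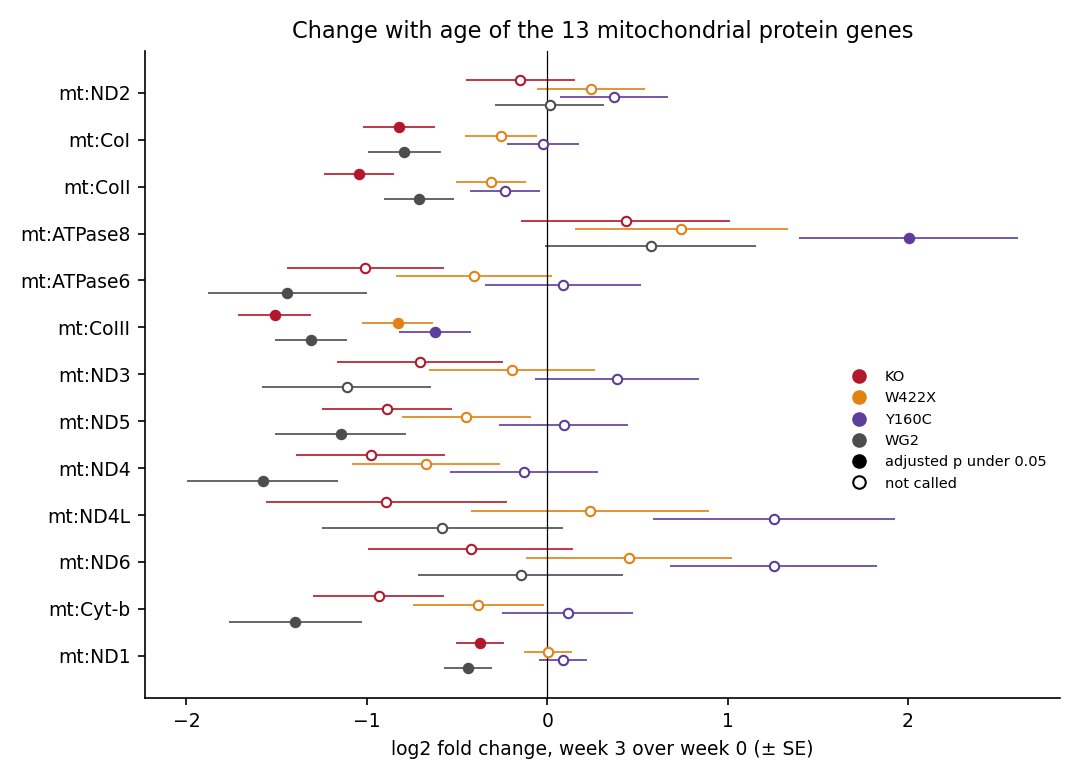
Log2 fold change of the 13 protein genes, week 3 over week 0, ± SE, in genome order from top to bottom, for KO, W422X, Y160C and WG2. Filled points passed an adjusted p of 0.05 in edgeR; mt:CoIII is filled in all 4 genotypes, from -1.51 in KO to -0.62 in Y160C.

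mt:CoIII was also lower at week 3 relative to mt:CoI, a gene of the same strand, within each library, where no scaling between libraries enters. The ratio of mt:CoIII reads to mt:CoI reads was 0.486 ± 0.0130 at week 3 and 0.783 ± 0.0581 at week 0 in KO (SD, n = 6 each). It was 0.498 ± 0.0436 at week 3 and 0.751 ± 0.0911 at week 0 in W422X, 0.447 ± 0.0154 at week 3 and 0.680 ± 0.0558 at week 0 in Y160C, and 0.520 ± 0.0672 at week 3 and 0.748 ± 0.0703 at week 0 in WG2. The ages did not overlap in any genotype: the highest week 3 ratio was 0.507 in KO, 0.565 in W422X, 0.458 in Y160C and 0.598 in WG2, and the lowest week 0 ratio was 0.715, 0.638, 0.614 and 0.683 in the same order. This ratio was picked after its values had been seen and is given without a test. The ratio of mt:CoII to mt:CoI averaged 0.195 at week 3 and 0.227 at week 0 in KO, 0.212 at week 3 and 0.221 at week 0 in W422X, 0.196 at week 3 and 0.227 at week 0 in Y160C, and 0.236 at week 3 and 0.226 at week 0 in WG2. The ages overlapped in KO, W422X and WG2, and in Y160C they barely touched, with a highest value of 0.21019 at week 3 and a lowest of 0.21018 at week 0. All 24 libraries at week 3, the 9 with a high share of rare genes included, lay below all 24 at week 0 in the ratio of mt:CoIII to mt:CoI.

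**Figure D4:**
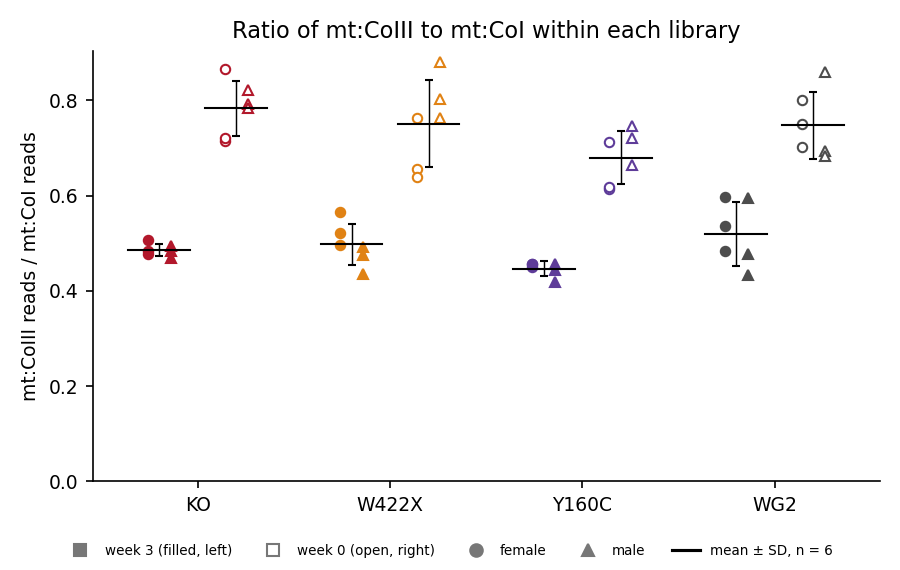
Reads of mt:CoIII divided by reads of mt:CoI in each library, by genotype and age (week 3 filled on the left, week 0 open on the right), with mean ± SD of 6 libraries. Every week 3 library lies at or under 0.598 and every week 0 library at or over 0.614.

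A small set of WG2 female libraries had very few mt:ATPase6 and mt:ND4 reads for their other mitochondrial reads. In WG2 female week 3 replicates 1 and 3 mt:ATPase6 stood at 39 and 115.2 CPM, against 234 CPM in replicate 2. In WG2 female week 0 replicate 1 it stood at 32.7 CPM, against 714 and 624 CPM in replicates 2 and 3. mt:ND4 stood at 11.8 and 31.5 CPM in the same week 3 libraries and at 14.9 CPM in the week 0 library. The ratio of mt:ATPase6 to mt:CoII reads was 0.0619 to 0.202 in these 3 libraries and 0.506 to 0.956 in the other 45, and the ratio of mt:ND4 to mt:ND5 was 0.161 to 0.306 in the 3 and 0.535 to 1.09 in the other 45. Naglu stood at 29.5 and 29.4 CPM in these week 3 libraries and at 22.6 CPM in the week 0 library. In the remaining WG2 libraries it ran from 17.9 to 27.6 CPM. Without these 3 libraries, a setting chosen after seeing the data, 5 of the 13 genes were called lower with age in WG2 in place of 8. The mt:ATPase6 call was also lost in a fit of WG2 alone, without KO female week 3 replicates 1 and 3, without the 9 libraries low in nuclear ribosomal RNA (edgeR adjusted p up to 0.221 over all alternatives) and after the removal of 7 single libraries, and the mt:Cyt-b call in a fit of WG2 alone. Without the 3 libraries the calls lost were those of mt:ATPase6 (-1.19, adjusted p 0.0525), mt:Cyt-b (-1.28, adjusted p 0.0724) and mt:ND5 (-1.22, adjusted p 0.118) in edgeR.

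**Figure D5:**
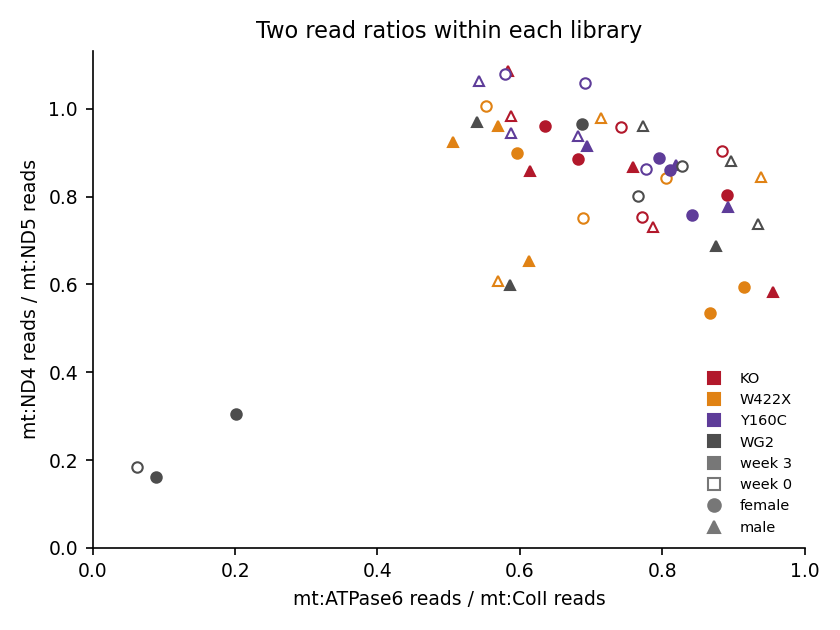
Ratio of mt:ATPase6 to mt:CoII reads (horizontal) and of mt:ND4 to mt:ND5 reads (vertical) in each of the 48 libraries, coloured by genotype, filled at week 3 and open at week 0. The 3 WG2 female libraries at the lower left lie under 0.202 and 0.306, and the other 45 lie over 0.506 and 0.535.

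No protein gene was called between a mutant and WG2, or in the test of whether the change with age differs from WG2. Against WG2 over both ages, 0 of 13 were called in KO, W422X and Y160C, where 0.747%, 0.373% and 0.31% of all genes were called. At an unadjusted p under 0.05 edgeR counted 0, 1 and 0 of the 13 in the same comparisons. At week 0 and at week 3 alone, 0 of 13 were called in each mutant, with 0.133%, 0.171% and 0.24% of all genes called at week 0 and 1.29%, 0.183% and 0.146% at week 3. The unadjusted counts were 0, 0 and 1 at week 0 and 0, 6 and 6 at week 3. DESeq2 called 0 of the 13 in every one of these comparisons. The smallest of these p-values belonged to mt:ND1 in W422X at week 3 (0.48 ± 0.13, unadjusted p 0.000997 and adjusted p 0.297 in edgeR). mt:ND4 differed by 1.21 ± 0.42 in Y160C (unadjusted p 0.00651, adjusted p 0.599), and it is one of the genes that are low in 2 of the 6 WG2 libraries at week 3. For mt:CoI at week 3, the KO, W422X and Y160C medians were 2494, 2872 and 3108 CPM, against 2088 CPM in WG2.

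For the difference of the change with age, 0 of 13 were called in KO, W422X and Y160C, where 0.215%, 0% and 0.019% of all genes were called and DESeq2 also called 0 of the 13. At an unadjusted p under 0.05 edgeR counted 0, 1 and 8 of the 13. In Y160C the 8 were mt:CoI (0.77 ± 0.28), mt:CoIII (0.69 ± 0.28), mt:ATPase6 (1.53 ± 0.61), mt:Cyt-b (1.51 ± 0.51), mt:ND1 (0.53 ± 0.19), mt:ND3 (1.5 ± 0.65), mt:ND4 (1.45 ± 0.58) and mt:ND5 (1.24 ± 0.51), each with an edgeR adjusted p of 0.99997. These genes come from shared precursors and are set against the same WG2 libraries, so the 8 are not independent of each other. Without the 3 WG2 female libraries the median difference in Y160C was 1.27 over the 13 genes, beside 1.40 with them, and 0 were called. Without the 9 libraries low in nuclear ribosomal RNA, which hold 4 of the 6 WG2 libraries at week 3, the median was 1.08 in KO, 0.31 in W422X and 1.74 in Y160C, beside -0.03, 0.60 and 1.40 with all libraries, and again 0 were called.

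Between the sexes 0 of 13 protein genes were called in any genotype, in edgeR or DESeq2, where 2.13% of all genes were called in KO, 1.57% in W422X, 1.25% in Y160C and 0.93% in WG2. The unadjusted counts under 0.05 were 3, 0, 0 and 6 in the same order. In WG2 males were above females in 12 of the 13 genes with a median log2 fold change, male over female, of 0.43. Without the 3 WG2 female libraries low in mt:ATPase6 and mt:ND4 the median was 0.21, and 0 of the 13 had an unadjusted p under 0.05 in edgeR. For the difference of the sex effect from WG2, edgeR and DESeq2 called 0 of 13 in each mutant, where 0.152%, 0% and 0.00633% of all genes were called in KO, W422X and Y160C, and the unadjusted counts were 0, 0 and 1.

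The RNA genes comprise the ribosomal and the transfer RNAs. mt:lrRNA and mt:srRNA, the large and small ribosomal RNAs of the organelle, were measured in libraries from which ribosomal RNA had been depleted, so their levels are what depletion left. Both were called lower with age in KO (2 of 2 in edgeR and in DESeq2). mt:lrRNA had 60.3, 107 and 277 CPM at week 3 in KO and 172, 408 and 4163 CPM at week 0 (lowest, median and highest of 6), and 5 of the 6 week 3 libraries lay below every week 0 library (-2.70 ± 0.69, edgeR adjusted p 0.00610). mt:srRNA had 23.7, 37.5 and 107 CPM at week 3 and 34.7, 145 and 1557 CPM at week 0 (-2.71 ± 0.97, adjusted p 0.0476). The highest week 0 values belong to KO male week 0 replicate 2, one of the libraries low in nuclear ribosomal RNA. Without that library both calls were lost, as they were without the 9 libraries with a high share of rare genes and without KO female week 3 replicates 1 and 3. The mt:lrRNA call was lost under these 2 settings and without that 1 library, whereas the mt:srRNA call was lost under 9 of the 12 settings, the one without the 9 libraries low in nuclear ribosomal RNA included, and after the removal of 23 single libraries. Over all alternatives the log2 fold change of mt:lrRNA ran from -3.21 to -1.48 and that of mt:srRNA from -3.05 to -1.09. In the other genotypes neither gene was called, with log2 fold changes of mt:lrRNA of 0.11 in W422X, -0.94 in Y160C and 0.65 in WG2. In Y160C, as in KO, 5 of the 6 week 3 libraries lay below every week 0 library for mt:lrRNA. The Y160C medians were 80.7 CPM at week 3 and 356 CPM at week 0. The remaining library, Y160C female week 3 replicate 1, had 1290 CPM and is one of those low in nuclear ribosomal RNA. The difference of the change with age between KO and WG2 was -3.35 ± 0.94 for mt:lrRNA and was not called in edgeR (adjusted p 0.235), while DESeq2 called 1 of the 2 genes lower.

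The share of mitochondrial ribosomal RNA was higher in the libraries with less nuclear ribosomal RNA. It was 0.159% of counts (median; 0.0612% to 0.607%) in the 9 libraries with under 0.003% nuclear ribosomal RNA, and 0.0358% (median; 0.00925% to 0.239%) in the other 39. The part of depletion in these values was not tested. The ratio of mt:lrRNA to mt:srRNA also varied widely within groups, from 1.29 to 13.2 over all libraries.

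Transfer RNA genes were barely covered. All 22 together had 7 to 157 reads in a library, and 17 of them lay below the expression filter. Of the 5 tested, mt:tRNA:Gln-TTG and mt:tRNA:Tyr-GTA were called higher with age in Y160C and mt:tRNA:Leu-TAA in KO, where 3.26% and 6.38% of all genes were called higher. mt:tRNA:Gln-TTG in Y160C had 86 reads over the 6 libraries at week 3 (1 to 22 per library) and 5 reads over the 6 at week 0 (0 to 2 per library). Its log2 fold change was 4.26 ± 1.02 (edgeR adjusted p 0.00648). The call was kept under every setting and every removal of a library that gave an adjusted p for it. DESeq2 gave none for 4 of the 5 transfer RNA genes tested for age in Y160C. In KO mt:tRNA:Gln-TTG had 107 reads at week 3 and 15 at week 0, with no overlap in CPM (0.581 to 1.18 CPM at week 3 and 0.0503 to 0.404 CPM at week 0). Its log2 fold change in KO was 2.53 ± 0.92 (edgeR adjusted p 0.0507). In W422X it had 49 reads at week 3 and 10 at week 0, and in WG2 48 at week 3 and 8 at week 0. Neither here nor for mt:tRNA:Tyr-GTA below was it counted how many of all genes tested separate the ages. mt:tRNA:Tyr-GTA had 194 reads at week 3 and 86 at week 0 in Y160C (1.66 ± 0.50, adjusted p 0.0336), with no overlap in CPM between the ages. This call was lost in a fit of Y160C alone, without either set of 9 libraries (edgeR adjusted p up to 0.119) and after the removal of 5 single libraries. mt:tRNA:Leu-TAA had 136 reads at week 3 and 48 at week 0 in KO (1.48 ± 0.52, adjusted p 0.0433), a call that was lost under 8 of the 12 settings, those without either set of 9 libraries included, and after the removal of 7 single libraries. The 22 genes summed to a median of 4.9 CPM over the 24 libraries at week 3 and 2.1 CPM over the 24 at week 0. Within week 3 the median was 6.3 CPM in the 9 libraries with a high share of rare genes and 3.2 CPM in the other 15, and the part of that share in the result was not tested. None of the RNA genes was called by edgeR between a mutant and WG2, between the sexes or in an interaction. Of 133 such tests, 14 had an unadjusted p under 0.05 in edgeR, and DESeq2 called 3. These were 1 ribosomal RNA lower and 1 transfer RNA higher in KO against WG2 at week 3, and the ribosomal RNA call for the change with age in KO. In KO against WG2 at week 3, the log2 fold changes of the 2 ribosomal RNA genes were -2.35 and -1.79 (lowest edgeR adjusted p 0.0856).

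Nuclear genes for the partners of these proteins were called lower with age in all 4 genotypes. In KO the nuclear subunit genes called lower were 27 of 36 tested for complex I, 3 of 6 for complex II (which has no subunit in the mitochondrial genome), 8 of 9 for complex III, 9 of 11 for complex IV and 13 of 14 for complex V. In W422X they were 12, 1, 6, 7 and 10 of the same numbers, in Y160C 19, 1, 7, 9 and 10, and in WG2 12, 2, 6, 9 and 10. Of all genes tested, 11.5% were called lower in KO, 2.99% in W422X, 4.29% in Y160C and 5.21% in WG2. The nuclear subunit genes called higher were COX4L (1.36) and ATPsynepsilonL (3.32) in KO, which were named after their values were seen. How these calls fared under other settings is not given here. Of the 9 libraries with a high share of rare genes, 4 are KO at week 3. The complex I count depended on the settings: DESeq2 called 24 lower in W422X and 23 in WG2, and without the 9 libraries with a high share of rare genes 9 were lower in KO and 8 in Y160C. The nuclear complex IV genes called lower had log2 fold changes of -0.91 to -0.73 in KO, -0.68 to -0.49 in W422X, -0.74 to -0.53 in Y160C and -0.65 to -0.45 in WG2, set beside -1.51, -0.83, -0.62 and -1.31 for mt:CoIII. These differences between genes were not tested. Examples in WG2 are COX6B (-0.63 ± 0.12, edgeR adjusted p 0.000796) and COX5A (-0.64 ± 0.14, adjusted p 0.00315) of complex IV, blw, the alpha subunit of ATP synthase (-0.80 ± 0.14, adjusted p 0.000244), and Cyt-c1 of complex III (-0.58 ± 0.13, adjusted p 0.00303). Without the 9 libraries low in nuclear ribosomal RNA none of these nuclear genes was called in WG2, where calls over all genes were 257, against 1379 with all libraries.

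Genes for the expression and upkeep of the mitochondrial genome were counted in the same way. Of 35 mitochondrial ribosomal protein genes, 20 were called lower with age in KO, 2 in W422X, 8 in Y160C and 5 in WG2. The KO calls with the smallest p, mRpL13 and mRpS9, were each lost under 1 of 60 alternatives. Without the 9 libraries with a high share of rare genes, 335 of all genes were called lower in KO, against 1821 with all libraries. Of 14 genes for transcription of the mitochondrial DNA and handling of its RNA, 2 were lower in KO, Suv3 (-0.51) and rswl (-0.45), and 1 was higher in WG2, mldr (0.49). Suv3 and rswl each lost the call under 1 of 60 alternatives and mldr under 8. Over all genes tested, 11.5% were lower in KO, 2.99% in W422X, 4.29% in Y160C and 5.21% in WG2, so that counts such as 2 of 14 in KO or 2 of 35 in W422X are near the share over all genes. Of 8 genes for maintenance of the mitochondrial DNA, 3 were called higher in KO, 2 in W422X, 1 in Y160C and 1 in WG2. Over all genes tested, 6.38%, 4.26%, 3.26% and 3.51% were called higher in the same order. With 8 genes, a single call is close to these shares. Among the 8, srl rose in all 4 genotypes. srl, the fly counterpart of the coactivator PGC-1 that promotes expression of mitochondrial genes in mammals, had log2 fold changes, week 3 over week 0, of 0.54 ± 0.10 in KO (edgeR adjusted p 0.000171), 0.72 ± 0.10 in W422X (adjusted p 6.90e-06), 0.47 ± 0.10 in Y160C (adjusted p 0.00180) and 0.65 ± 0.10 in WG2 (adjusted p 2.91e-05). It stayed called under all 60 alternatives, leave-one-out included. PolG1, the catalytic subunit of the DNA polymerase of mitochondria, was called higher in KO (0.61) and W422X (0.60), but not under 4 of the 60 alternatives in KO and 26 of the 60 in W422X (adjusted p up to 0.411 and 0.161). mtDNA-helicase, named after its values were seen, was called higher in KO (0.65).

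Summed markers of neurons were lower at week 3, and those of other cell types are given beside them. The summed level of 13 neuron markers had a range of 11721 to 16551 CPM at week 3 and 18562 to 21929 CPM at week 0 in KO. In W422X it was 11996 to 18031 CPM at week 3 and 18824 to 23397 CPM at week 0, and in Y160C 12260 to 16504 CPM at week 3 and 17450 to 22375 CPM at week 0. In WG2 it was 11552 to 16752 CPM at week 3 and 18737 to 22788 CPM at week 0, so that the ages did not overlap in any genotype. Of the 13 neuron markers, 12, 8, 9 and 8 were called lower in KO, W422X, Y160C and WG2. Of 10 glia markers 7, 1, 1 and 1 were called lower and 1 higher in each. Over all genes tested, 11.5%, 2.99%, 4.29% and 5.21% were called lower in the same order, and 6.38%, 4.26%, 3.26% and 3.51% higher. With 10 markers, a single call is close to these shares. The sum of 11 germline and gonad markers did not overlap between the ages in any genotype either, with ranges of 505 to 675 CPM at week 3 and 714 to 805 CPM at week 0 in KO and of 458 to 663 CPM at week 3 and 687 to 872 CPM at week 0 in WG2. Single markers of this list went both ways. In all 4 genotypes bol was called lower and twe higher, with log2 fold changes of -0.46 and 0.47 in KO and of -0.47 and 0.39 in WG2. Photoreceptor markers summed to medians of 871 CPM at week 3 and 1287 CPM at week 0 in KO and of 1189 CPM at week 3 and 1321 CPM at week 0 in WG2, and their medians were also lower at week 3 in W422X and Y160C. Their ranges overlapped in all 4 genotypes. The highest week 3 sum lay above the highest week 0 sum in Y160C (4764 against 2033 CPM) and in WG2 (2357 against 1451 CPM), and below it in KO and W422X. Fat body markers had higher medians at week 3 in all 4 genotypes, with overlapping ranges. The summed haemocyte markers reached 7853 CPM in 1 KO library at week 3 and at most 891 CPM in the libraries of the other genotypes. Muscle markers, from a tissue rich in mitochondria, summed to medians of 332 CPM at week 3 and 329 CPM at week 0 in KO. In W422X the medians were 260 CPM at week 3 and 269 CPM at week 0, in Y160C 376 CPM at week 3 and 281 CPM at week 0, and in WG2 299 CPM at week 3 and 294 CPM at week 0. The part of these cell types in the mitochondrial transcripts was not tested.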

How the data were processed

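Brains were profiled in 48 libraries of rRNA-depleted total RNA, per the labels. The table that the authors deposited holds unnormalised counts of reads for each gene, and a gene length that is used here for levels per kb. Per the submitters' processing notes, Subread was used (version not named); aligner, build, annotation and strand setting are not given in the sources used here. Symbols and positions come from the BDGP6.54 annotation by gene identifier (17288 of 17490 matched). For 8 members the deposited length differs from it.

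The tests used edgeR 4.0.16 under R 4.3.3 (filterByExpr, minimum count 10; TMM; glmQLFit, robust) in a single model with a mean for each of 16 groups (32 residual degrees of freedom), tested on simulated data. The SE is the log2 fold change over the square root of F. DESeq2 1.42.0 and other settings were alternatives. The members and the 16 gene lists were chosen with earlier results of these data known; 17 of 239 list entries matched no gene. The text names all protein and ribosomal RNA genes, the transfer RNA genes tested and up to 2 called genes per list and comparison with the smallest p. Sequences were not used here.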

Additional observations from a re-analysis of the deposited data

How the results depend on the processing

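In the 19 comparisons other than age, 0 of the 13 protein genes were called under all 12 other settings and with each of the 48 libraries left out in turn. For age in KO, the count of 4 was 2 without the 9 libraries with a high share of rare genes. For age in Y160C, the count of 2 was 1 with DESeq2, 1 with the share of rare genes as a covariate, 1 without the 9 libraries low in nuclear ribosomal RNA and 0 without the 9 with a high share of rare genes. For age in WG2, the count of 8 was 3 in a fit of WG2 alone, 5 without KO female week 3 replicates 1 and 3, 5 without the 9 libraries with a high share of rare genes, 5 without the 3 WG2 female libraries and 2 without the 9 low in nuclear ribosomal RNA. With a single library left out the count ran from 2 to 7 in KO, from 1 to 3 in W422X, from 0 to 2 in Y160C and from 3 to 9 in WG2. It was 2 in KO without KO male week 0 replicate 2 and 7 without WG2 female week 0 replicate 1, and 3 in W422X without W422X female week 3 replicate 3. In Y160C 16 libraries moved it, to 0 without female week 0 replicates 1 or 3 or male week 0 replicate 1. In WG2 it was 3 and 4 without female week 0 replicates 2 and 3, and 5 without female week 3 replicate 2, male week 0 replicates 1 or 2, or male week 3 replicate 1. The cause was not tested. No called member reversed its sign in any of these.

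Over 120 pairs of groups the correlation of same-numbered deviations ran from -0.909 to 0.859 (median 0.0122), with 48 over 0.1. With 3 samples per group, these values cannot decide whether replicate numbers pair the samples. A replicate block by the title's number, or by the number in the description, gave 1 call for age in Y160C in place of 2 and moved no other count by over 1.5 times. The summed shares and the ratio of mt:CoIII to mt:CoI moved by less than 1 SD under each alternative tried on them. The settings without libraries and with the covariate were chosen after seeing the data, apart from the one without the KO females. Transfer RNA genes and mt:ATPase8 are limited by depth, with a median of at most 20.5 reads per gene and library.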
